A study of Mus musculus with 26 samples.

Results

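Open chromatin was examined around Esrrb, Nr5a2 and Tfcp2l1, 3 genes for transcription factors of the naive pluripotency network, in 26 lists of ATAC-seq peaks from mouse pluripotent stem cells. A peak was taken as a member when it overlapped the GRCm38 span of 1 of these genes extended by 50 kb on each side. The rule gave 136 of the 451563 deposited peaks: 74 near Esrrb, 42 near Tfcp2l1 and 20 near Nr5a2. Esrrb peaks occurred in 23 of the 26 lists, Tfcp2l1 peaks in 23 and Nr5a2 peaks in 17.

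Esrrb (estrogen-related receptor beta) and Nr5a2 (also called LRH-1) are orphan nuclear receptors that bind DNA at related sites, and Tfcp2l1 is a member of the CP2 and grainyhead family that acts downstream of LIF and STAT3. In mouse ES cells these factors help to hold Oct4, Nanog and the Klf genes active, and Esrrb is a well-known target held down by the repressor Tcf7l1. Expression of the naive network falls as cells leave the ES state for the formative and primed states. A peak in ATAC-seq marks DNA that the transposase Tn5 can reach, at promoters and enhancers alike, and is not a measure of transcription.

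The study profiled mouse pluripotent cells kept in different media, from 50000 cells for each library. In the first set of 18 libraries, with 3 for each culture, ES cells at passage 16 were grown in 2iL, the medium of naive cells. Formative stem (FS) cells were grown in A3XR as FS1 at passage 21 and FS2 at passage 29. Epiblast stem cells (EpiSCs), the primed cells, were grown in AF at passage 22 (EpiSC_AF) or in AFX as EpiSC_AFX1 at passage 14 and EpiSC_AFX2 at passage 16. A second set of 8 libraries, called Rd2 in the labels, held 2 of ES cells in 2iL at passage 33 (Rd2_ES), 2 of EpiSCs in AFX at passage 16 (Rd2_AFX) and 4 of epiblast-like cells (Rd2_EpiLC). The EpiLCs had been induced from ES cells for 2 days in AF with KSR and sorted for low GFP. The labels name the source of the Rd2 ES libraries Rd2GFP and say no more of the reporter behind the GFP sort. They give no other genotype, no strain or origin of the lines, and no word on whether libraries of a culture came from separate dishes, so a p-value here measures only the spread between these libraries, which may be technical.

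The lists differed in length, and this sets how far down each list reaches. ES lists held 8044 to 10961 peaks, FS1 23883 to 31263, FS2 11796 to 14147, EpiSC_AF 15505 to 24824, EpiSC_AFX1 17701 to 27485 and EpiSC_AFX2 25641 to 29575. In the Rd2 set the ES lists held 471 and 2576 peaks, the EpiLC lists 7469 to 26045 and the AFX lists 10719 and 11252. Read depth is unknown because peak lists carry no read counts. Values are therefore given for the lists as deposited and at equal list length, which for the first set means the 8044 peaks of highest −log10 p in each list, the length of the shortest. For EpiLC and Rd2_AFX the equal length was 7469. The sets were never compared with each other, because their shortest peaks were 150 bp and 110 bp long and it is not known whether they were processed alike.

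Marker genes followed the labels in part. Of 12 naive markers, 7 had a gene end with a peak no more than 1 kb away in most ES libraries, among them Zfp42, Klf4 and Nanog, whereas none of 10 formative markers did. In FS1, EpiSC_AF, EpiSC_AFX1 and EpiSC_AFX2 the same counts were 7 naive and 8 formative markers, in FS2 they were 3 and 4, in EpiLC 4 and 5 and in Rd2_AFX 3 and 4. Rd2_ES gave 0 and 0, and Zfp42 was counted only in the ES cells of the first set. These counts are from lists as deposited. In them a gene-end peak was found for 21.3 to 26.1% of all protein-coding genes in ES and for 32.1 to 55.1% in the other first-set lists. In the Rd2 set the share was 1.58 and 9.7% in ES, 25 to 51.5% in EpiLC and 32.9 and 34.8% in AFX. Like counts of markers thus stand against unlike shares of all genes. Of 6 fibroblast markers, 4 in FS1, 1 in FS2, 2 in EpiSC_AF, 5 in EpiSC_AFX1 and 4 in EpiSC_AFX2 had such a peak, and none in ES. Of 10 primed markers, 1 in ES, 5 in FS1, 1 in FS2, 9 in EpiSC_AF, 6 in EpiSC_AFX1 and 8 in EpiSC_AFX2 had one. In the Rd2 set the primed count was 0 in Rd2_ES and 1 in EpiLC. It was also only 1, Eomes, in Rd2_AFX, which are EpiSCs by label. Endoderm markers gave 0 in ES and FS2 and 1 or 2 of 6 in the other first-set groups, and trophoblast markers 0 or 1 of 5 in every first-set group. The part of other cell types in the results below was not tested. These are bulk libraries, so a smaller share of cells with an open site and a less open site in every cell cannot be told apart.

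The starts of the 3 genes are shown because peaks treated them very differently. Each promoter below runs from 250 bp before to 50 bp after a RefSeq start (GRCm38.p6), is printed 5′ to 3′ on the strand of the gene, and has its motif matches in capitals. Tfcp2l1 lies on the plus strand and has 1 start in the table, covered by a peak in 19 lists. Esrrb lies on the plus strand and has 2, of which the upstream one was covered in 1 list and the internal one, 60.5 kb downstream, in 10. Nr5a2 lies on the minus strand and has 2 starts 6.82 kb apart, both covered in 0 lists, and the internal one is shown.
Tfcp2l1 start, chr1:118627695-118627994, plus strand: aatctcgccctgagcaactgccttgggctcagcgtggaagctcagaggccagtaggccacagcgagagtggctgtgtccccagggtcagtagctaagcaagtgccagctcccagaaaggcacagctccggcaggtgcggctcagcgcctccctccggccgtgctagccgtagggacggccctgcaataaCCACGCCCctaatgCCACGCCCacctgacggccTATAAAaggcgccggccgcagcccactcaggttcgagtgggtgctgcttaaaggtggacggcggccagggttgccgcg
Esrrb upstream start, chr12:86360867-86361166, plus strand: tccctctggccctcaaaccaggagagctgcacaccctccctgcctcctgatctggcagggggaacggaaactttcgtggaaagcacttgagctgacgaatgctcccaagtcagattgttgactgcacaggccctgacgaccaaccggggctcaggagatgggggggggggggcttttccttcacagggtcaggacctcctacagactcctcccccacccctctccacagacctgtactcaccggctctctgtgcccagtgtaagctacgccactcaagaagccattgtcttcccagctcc
Esrrb internal start, chr12:86421394-86421693, plus strand: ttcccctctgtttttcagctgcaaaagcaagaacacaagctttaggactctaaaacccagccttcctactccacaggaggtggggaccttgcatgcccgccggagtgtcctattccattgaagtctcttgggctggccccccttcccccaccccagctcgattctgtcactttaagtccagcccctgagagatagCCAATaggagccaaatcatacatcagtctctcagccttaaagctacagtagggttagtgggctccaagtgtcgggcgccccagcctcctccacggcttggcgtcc
Nr5a2 internal start, chr1:136953581-136953880, minus strand: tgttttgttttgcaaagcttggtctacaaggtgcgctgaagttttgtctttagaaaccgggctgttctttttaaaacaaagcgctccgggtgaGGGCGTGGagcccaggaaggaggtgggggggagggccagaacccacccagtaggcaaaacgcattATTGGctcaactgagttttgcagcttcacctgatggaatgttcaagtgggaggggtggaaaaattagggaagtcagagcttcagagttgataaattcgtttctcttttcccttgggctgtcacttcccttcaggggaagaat

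The Tfcp2l1 promoter was the richest of the 5 in G and C. Its GC content was 65.3% with 21 CpG dinucleotides, against medians of 56.3% and 13 over 21262 promoters of 300 bp from the same table. Both Esrrb promoters held 7 CpG, at 60% GC for the upstream and 55.3% for the internal start. The Nr5a2 promoters held 2 CpG at 42% GC upstream and 7 at 49% GC for the internal start. The promoter in 19 lists was thus above the median of all promoters in both measures, and the other 4 were below it in CpG.

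Letters of 10 motifs were searched on both strands: the KLF site CCACGCCC, the TATA box TATAAA, the CCAAT box itself, the GC box GGGCGG, TCAAGGTCA (the extended half-site bound by Esrrb and Nr5a2), the octamer ATTTGCAT, the STAT site TTCCNGGAA, the OTX site TAATCC, the TCF site CTTTGAT and the E-box CACGTG. The Tfcp2l1 promoter held CCACGCCC at −61 and −47 from the start and TATAAA at −28. The KLF letters occurred in 6.97% of all promoters and those of the TATA box in 12.6%. The Esrrb internal promoter held CCAAT at −55 and its upstream promoter held no match. The Nr5a2 internal promoter held the KLF letters in reverse, GGGCGTGG, at −157 and CCAAT in reverse, ATTGG, at −92. CCAAT occurred in 38.2% of promoters and thus says little. The upstream Nr5a2 promoter, not printed, held TATAAA in reverse at −181. No promoter of the 3 genes held TCAAGGTCA, found in 0.334% of promoters, which says only that these letters are not in these windows; no matches shared a base.

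Tfcp2l1 (chr1:118627923-118685168) had a simple pattern of 2 recurrent regions, its start and a site within the gene, and ES lists carried only the second. All its other regions, 5 of 7, were each in a single list. Of the 42 peaks, 19 lay at the start, 20 inside the gene away from its ends and 3 outside it. The table gives whole gene spans, so exons and introns cannot be told apart here.

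The start region (chr1:118627590-118628474) had a peak in 0 of 3 ES lists and in 14 of the 15 other lists of the first set. By group it was in 3 of 3 FS1, 2 of 3 FS2, 3 of 3 EpiSC_AF, 3 of 3 EpiSC_AFX1 and 3 of 3 EpiSC_AFX2 lists. FS2 replicate 3 was the one without it. In the Rd2 set it was in 3 of 4 EpiLC and 2 of 2 AFX lists and in neither Rd2_ES list. The Rd2_ES lists, of 471 and 2576 peaks, reach too short a way to show it missing. As deposited, 21.6% of 14254 genes had an end peak in at least 10 of the 15 other first-set lists and none in ES. At equal list length 5.87% of 10707 genes had this pattern, and the start region was in 11 of the 15. A limit of 10 is looser than 14, and the share at 14 was not counted.

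The rank of the start peak in its own list, with 1 as the highest −log10 p, was 5504, 8224 and 7952 in FS1 and 2710 and 1333 in FS2. It was 9273, 13212 and 6325 in EpiSC_AF, 4180, 7288 and 4984 in EpiSC_AFX1 and 7137, 5919 and 7194 in EpiSC_AFX2. The rank numbers were lowest in FS2, whose lists were the shortest of these groups, and lists of unlike length give no order between groups. Of these 14 peaks, 13 ranked within 10961, the length of the longest ES list, and 11 within 8044. In EpiLC the ranks were 3150, 5805 and 18873, and in Rd2_AFX 6667 and 3322.

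ES lists lacked the start peak at equal list length as well, yet the region test did not pass. The start region was then in 0 of 3 ES and 6 of 6 EpiSC_AFX lists, so the groups did not overlap, as for 2.59% of the 20630 regions of that comparison (Fisher's exact test, two-sided, p = 0.0119, adjusted p = 0.224 over all regions). That p is the smallest that 3 against 6 libraries allow, and 1673 regions had an unadjusted p under 0.05. Against FS it was in 0 of 3 and 4 of 6 lists (Fisher's exact test, p = 0.167, adjusted p = 0.78). No region in the windows separated ES from FS at that length, where 2.12% of 22046 regions were in every ES and no FS list and 1.69% the reverse. In the comparison with EpiSC_AFX, 2.72% of regions were in every ES and no EpiSC_AFX list, none of them in the windows. Ranked by fold enrichment in place of −log10 p, the start region was in 5 of 6 FS and 5 of 6 EpiSC_AFX lists at that length, and still in 0 ES lists. The contrast with EpiSC_AFX was gone among the 4000 highest peaks by −log10 p. There the start region was in 0 lists of ES, FS1, EpiSC_AF, EpiSC_AFX1 and EpiSC_AFX2, and in 2 of 3 FS2 lists.

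Peaks at gene ends missing from ES lists were common. Of 9521 genes with an end peak at equal list length in ES or EpiSC_AFX, 3.09% had one in every EpiSC_AFX and no ES list, and 15.9% of 13642 in the lists as deposited. With lists of equal length, 20.6 to 21.3% of all protein-coding genes had an end peak in ES and 22.6 to 26.1% in the other first-set lists, so ES lists were the lowest there as well.

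The site within Tfcp2l1, here called the +20.4 kb region (chr1:118647999-118648649, 20.4 kb downstream of the start), was in 3 of 3 ES lists. It was also in 3 of 3 FS1, 2 of 3 FS2, 3 of 3 EpiSC_AF, 3 of 3 EpiSC_AFX1 and 3 of 3 EpiSC_AFX2 lists, and in 1 of 4 EpiLC, 0 of 2 Rd2_AFX and 0 of 2 Rd2_ES lists. The 18 peaks there were 148 to 546 bp long, with a median of 274. Presence alone thus did not separate ES from any group of the first set.

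Its rank is given within each list, and the lists differ in length. In ES the peak ranked 2712, 766 and 824. In FS1 it ranked 8663, 5611 and 11210, and in FS2 12017 and 7233. EpiSC_AF ranks were 14180, 14428 and 8593. EpiSC_AFX1 ranks were 4251, 5097 and 14281, and EpiSC_AFX2 ranks were 8909, 8321 and 4584. The ES rank numbers were thus the lowest, and 3 EpiSC_AFX libraries came within 5097. As a percentile of its own list the peak stood at 75.3, 90.5 and 91.5 in ES and at 82.4 in EpiSC_AFX2 replicate 3, so the groups overlapped on that scale. The authors' own values of the peak were not highest in ES: the −log10 p was 6.64, 8.86 and 9.31 in ES and 10.6 in EpiSC_AFX2 replicate 3, where these values belong to each list and set no order between lists.

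Among the 4000 highest peaks, it was in 3 of 3 ES lists and in 0 of the 15 other lists of the first set. EpiSC_AFX ranks of 4251, 4584 and 5097 lie not far past that length. Of 11289 regions compared with FS at that length, 1.59% were in every ES and no FS list, and of 10129 compared with EpiSC_AFX, 2.6% were in every ES and no EpiSC_AFX list. Fisher's exact test gave p = 0.0119 in both, with adjusted p = 0.435 against FS and 0.241 against EpiSC_AFX. At 8044 peaks the counts were 3 of 3 ES, 2 of 6 FS (p = 0.167, Fisher's exact test) and 3 of 6 EpiSC_AFX lists (p = 0.464). With a limit of −log10 q of at least 5 in place of a fixed length the direction turned, with the region in 1 of 3 ES lists, 1 of 6 from FS and 5 of 6 from EpiSC_AFX. By fold enrichment the groups overlapped: the ES peaks ranked 4827, 1578 and 1468, while EpiSC_AFX1 replicate 1 stood at 3372 and EpiSC_AFX2 replicate 3 at 4091.

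**Figure D1:**
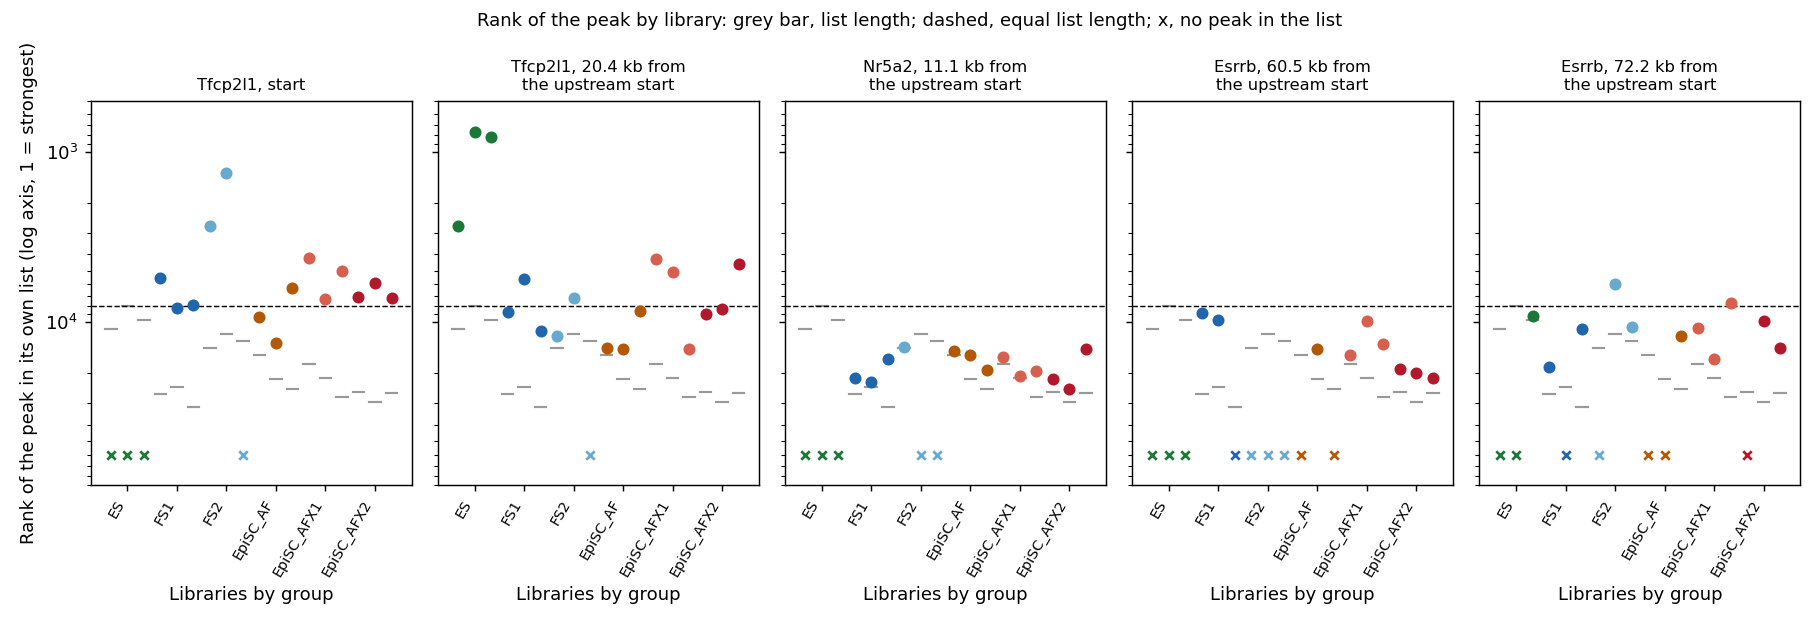
Rank of the peak in its own list (log axis, 1 at the top) for each of the 18 first-set libraries, grouped on the horizontal axis, in 5 regions; grey bars are list lengths, the dashed line is 8044 and a cross means no peak in the list. ES libraries have no peak at the Tfcp2l1 start but stand at 766 to 2712 at the site 20.4 kb downstream, and every Nr5a2 point lies below the dashed line.

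Within a list, the Tfcp2l1 start and the +20.4 kb region did not keep 1 order. The site within the gene was the higher, and the only one, in 3 of 3 ES lists. The start was the higher in 2 of 3 FS1, 2 of 2 FS2 lists with a peak, 3 of 3 EpiSC_AF, 2 of 3 EpiSC_AFX1 and 2 of 3 EpiSC_AFX2 lists. It was also the higher in 3 of 4 EpiLC and 2 of 2 Rd2_AFX lists, where the fourth EpiLC list had neither. Both peaks were present in only 1 of these Rd2 lists, EpiLC replicate 2, and in the rest the start was the only one. The order within the gene seen in ES was also that of FS1 replicate 2, EpiSC_AFX1 replicate 2 and EpiSC_AFX2 replicate 3. By fold enrichment EpiSC_AFX1 replicate 1 turned as well, with the start at 3429 and the site within the gene at 3372, which leaves the start the higher in 1 of 3 EpiSC_AFX1 lists. ES lists were the shortest of the first set, and the part of list length in this order was not tested.

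Nr5a2 (chr1:136842562-136960448) had 1 recurrent region and little else. The region (chr1:136948881-136949784) lies inside the gene, 11.1 kb downstream of the upstream start and 4.3 kb downstream of the internal one. It held 16 of the 20 peaks, and the other 4 regions were each in a single list. No peak came within 1 kb of either end of the gene or of its internal start in any list.

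The +11.1 kb region of Nr5a2 was in 0 of 3 ES, 3 of 3 FS1, 1 of 3 FS2, 3 of 3 EpiSC_AF, 3 of 3 EpiSC_AFX1 and 3 of 3 EpiSC_AFX2 lists, and in 3 of 4 EpiLC, 0 of 2 Rd2_AFX and 0 of 2 Rd2_ES lists. Its peaks were 146 to 757 bp long with a median of 470, the broadest of the recurrent regions in the windows. Nr5a2 in ES cells had 1 peak in all, in replicate 1, a site of 249 bp at chr1:136904794-136905042 in the middle of the gene that no other list held.

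In the first set the lists with and without the Nr5a2 peak divided by length: all 13 with it held 14147 peaks or more, and the 5 without it 12960 or fewer. Its ranks were 21156, 22593 and 16377 in FS1 and 14059 in FS2. They were 14816, 15667 and 19125 in EpiSC_AF, 15917, 20797 and 19442 in EpiSC_AFX1 and 21676, 24623 and 14433 in EpiSC_AFX2. None of these 13 ranks fell within the 10961 of the longest ES list, so an ES peak of like rank would not be listed. Within 8044 peaks the region had a peak in 0 of 18 libraries. It stood higher in EpiLC replicate 1, at rank 2909, than in EpiLC replicates 2 and 4, at 18289 and 25685.

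As deposited, the +11.1 kb region was in 0 of 3 ES and 6 of 6 EpiSC_AFX lists, which 8.18% of 51601 regions also showed (Fisher's exact test, p = 0.0119, adjusted p = 0.137). Of the 18252 first-set regions with a peak in at least 8 of the 15 other lists, 48% had none in ES. The Nr5a2 region was in 13 of those 15 lists, and the share of regions at 13 or more was not counted. Absence from ES was thus common in the wider set of regions.

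**Figure D2:**
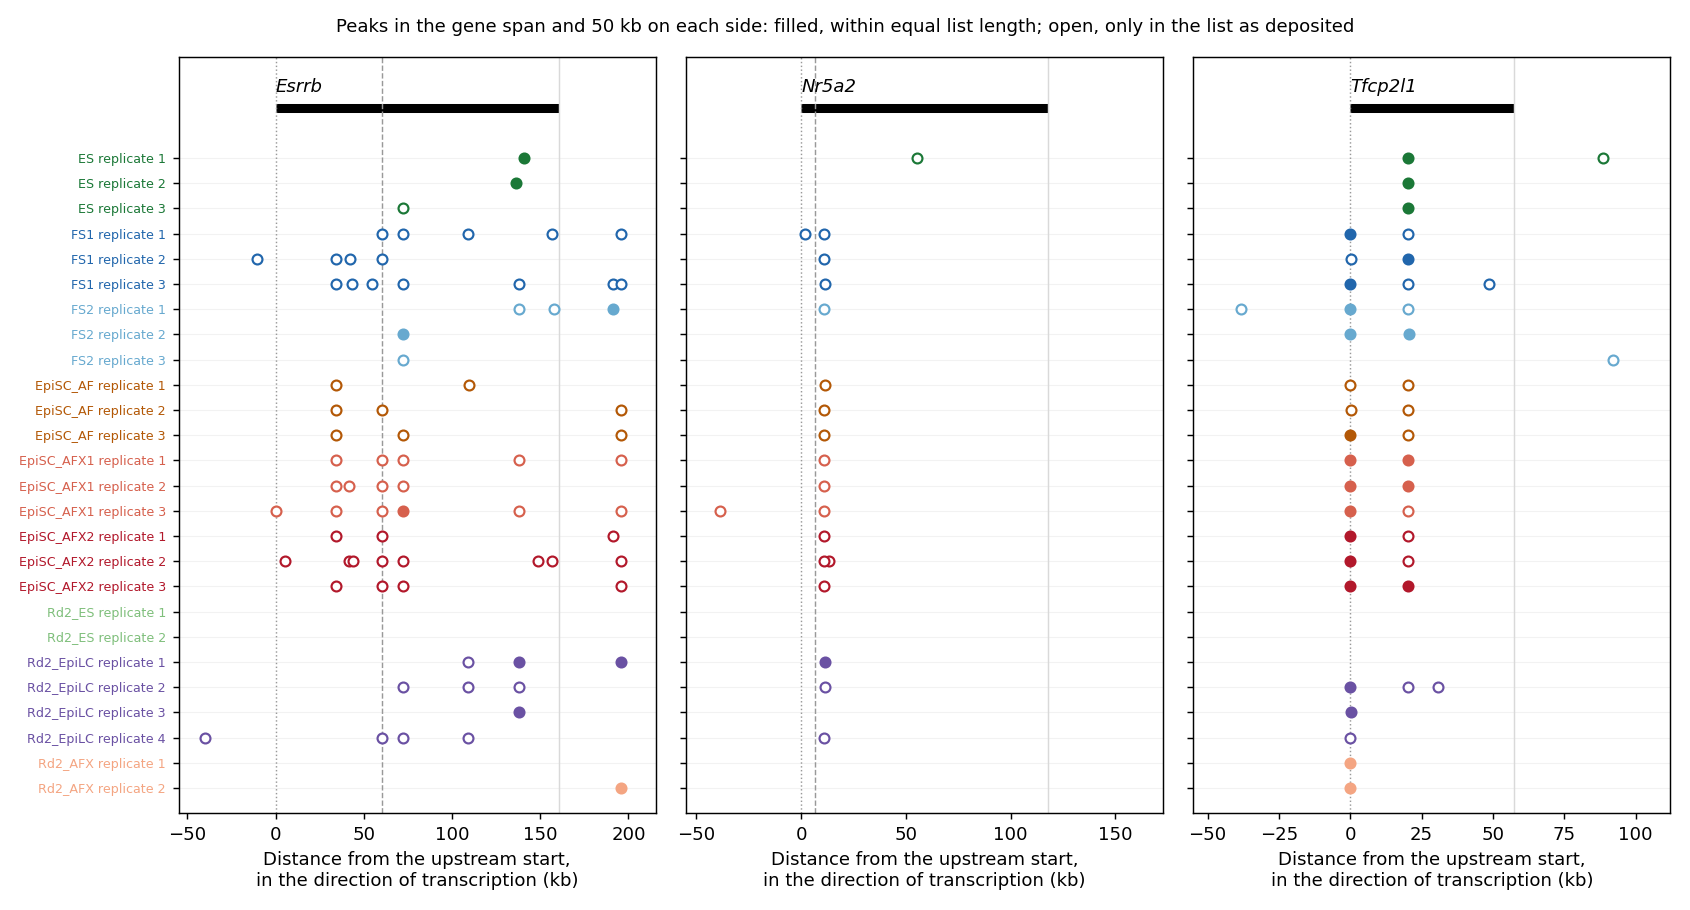
Every peak in the 3 windows by its distance in kb from the upstream start, in the direction of transcription, with 1 line for each of the 26 libraries; the black bar is the gene, dotted and dashed lines mark upstream and internal starts, and filled points lie within equal list length (8044 in the first set, 7469 for EpiLC and Rd2_AFX). Tfcp2l1 has 2 columns of points, Nr5a2 has 1, and Esrrb has several columns with few filled points.

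Esrrb (chr12:86361117-86521628) is the longest of the 3 genes, at 161 kb, and its peaks were spread over 21 regions, of which 12 were in a single list. Of the 74 peaks, 48 lay inside the gene away from its ends and starts, 10 at the internal start, 15 outside the gene and 1 at its upstream start. Only 5 of them, 4 inside and 1 outside the gene, fell within the equal list length of the first set. No region of Esrrb was in more than 1 ES list.

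The upstream start had a peak (chr12:86361025-86361207) only in EpiSC_AFX1 replicate 3, at rank 19800. It lies where the long noncoding RNA gene Gm40483 (chr12:86359049-86361172) overlaps the first bases of Esrrb. The internal start region (chr12:86421388-86421884) was in 0 of 3 ES, 2 of 3 FS1, 0 of 3 FS2, 1 of 3 EpiSC_AF, 3 of 3 EpiSC_AFX1 and 3 of 3 EpiSC_AFX2 lists, and in 1 of 4 EpiLC lists. Of the 2 starts, the internal one was thus the more often accessible, and in every EpiSC_AFX list.

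Ranks at the internal start were 8836 and 9727 in FS1 and 14433 in EpiSC_AF. They were 15624, 9845 and 13417 in EpiSC_AFX1 and 18930, 19752 and 21283 in EpiSC_AFX2. Of the 9 first-set peaks, 3 ranked within the length of the longest ES list and 0 within 8044. As deposited, the region was in 0 of 3 ES and 6 of 6 EpiSC_AFX lists (Fisher's exact test, p = 0.0119, adjusted p = 0.137), the same counts as the Nr5a2 region. FS and EpiSC_AFX had it in 2 of 6 and 6 of 6 lists (Fisher's exact test, p = 0.0606, adjusted p = 1). It thus did not separate them, as 0.0755% of 59574 regions did with a peak in every EpiSC_AFX and no FS list. The share of regions in 2 of 6 and 6 of 6 lists was not counted.

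Inside Esrrb the most frequent site was the +72.2 kb region (chr12:86432922-86433657), 11.6 kb past the internal start and in 13 lists. It was in 1 of 3 ES, 2 of 3 FS1, 2 of 3 FS2, 1 of 3 EpiSC_AF, 3 of 3 EpiSC_AFX1, 2 of 3 EpiSC_AFX2 and 2 of 4 EpiLC lists. The ES peak, in replicate 3, ranked 9198. Its other first-set ranks ran from 5977 in FS2 to 18421 in FS1, the EpiLC ranks were 20362 and 14347, and 6 of the 10 first-set peaks outside ES ranked within the length of the longest ES list. This was the only recurrent Esrrb region with an ES peak.

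The +34.3 kb region (chr12:86395089-86395837), between the 2 starts, was in 0 of 3 ES, 2 of 3 FS1, 0 of 3 FS2, 3 of 3 EpiSC_AF, 3 of 3 EpiSC_AFX1 and 2 of 3 EpiSC_AFX2 lists and in none of the Rd2 set. Its EpiSC_AF ranks were 11442, 10934 and 10271, while its FS1 ranks were 19628 and 23294. Within 8044 peaks the region was in 0 first-set lists. With all FS and EpiSC lists taken at 11796, the length of the shortest of them, the region was in 3 of 3 EpiSC_AF, 1 of 6 EpiSC_AFX and 0 of 6 FS lists. That length was added after the data were seen and lies just past the EpiSC_AF ranks. The share of all regions with this pattern was not counted. EpiSC_AF was described and not tested against FS.

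The other Esrrb region in 10 lists lies beyond the end of the gene, 196 kb downstream of the upstream start (chr12:86556584-86557295). It was in 0 of 3 ES, 2 of 3 FS1, 0 of 3 FS2, 2 of 3 EpiSC_AF, 2 of 3 EpiSC_AFX1, 2 of 3 EpiSC_AFX2, 1 of 4 EpiLC and 1 of 2 Rd2_AFX lists. None of its 8 first-set ranks, from 11323 to 27461, was within the length of the longest ES list. In the 2 Rd2 lists that held it the ranks were 6205 and 7146, within the equal length of that set.

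The other ES peaks of Esrrb lay in sites of a single list. ES replicate 1 had a peak at chr12:86501652-86502120, rank 6320, and ES replicate 2 at chr12:86497181-86497430, rank 6442, both in the 3′ part of the gene. No other list held either site. Between them lies a region of EpiLCs (chr12:86498800-86499156), present in 3 of 4 EpiLC lists at ranks 3457, 10854 and 7033, and in 1 FS1, 1 FS2 and 2 EpiSC_AFX1 lists at ranks from 10793 to 27730. A further site (chr12:86470040-86470613) was also in 3 of 4 EpiLC lists, at ranks 10235, 16444 and 25910, and in 1 FS1 and 1 EpiSC_AF list. No Esrrb site was shared by the ES libraries.

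Long lists held the most peaks near Esrrb, though not in strict order of length. Each ES list had 1 peak there. FS1 lists had 5, 4 and 7, FS2 lists 3, 1 and 1, EpiSC_AF lists 2, 3 and 3, EpiSC_AFX1 lists 5, 4 and 6, and EpiSC_AFX2 lists 3, 8 and 4. Every ES list was below every EpiSC_AFX list as deposited, with a mean difference of −4 peaks (exact permutation test, two-sided, p = 0.0238, adjusted p = 0.0548 over 20110 genes). But 42.3% of genes had every ES list below every EpiSC_AFX list, 36.4% passed the test as lower in ES, and the median difference over all genes was −1.67.

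Near Esrrb at equal list length the ES lists had 1, 1 and 0 peaks. FS1 lists had 0 each, while FS2 lists had 1, 1 and 0, the same as ES. The joined FS lists had 0.333 ± 0.52 (SD, n = 6). EpiSC_AFX lists had 0.167 ± 0.41 (SD, n = 6), a single peak in EpiSC_AFX1 replicate 3. The difference of 0.333 between ES and FS (exact permutation test, p = 0.524, adjusted p = 0.865) and of 0.5 between ES and EpiSC_AFX (p = 0.464, adjusted p = 0.807, exact permutation test) were within the spread of libraries. With the longer lists the sign was the opposite, at −2.5 and −4 peaks.

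Near Nr5a2, ES lists as deposited had 1, 0 and 0 peaks, FS1 2, 1 and 1, FS2 1, 0 and 0, EpiSC_AF 1 each, EpiSC_AFX1 1, 1 and 2, and EpiSC_AFX2 1, 2 and 1. ES differed from EpiSC_AFX by −1 peak (exact permutation test, p = 0.119, adjusted p = 0.181) and from FS by −0.5 (exact permutation test, p = 0.643, adjusted p = 0.791). Within 8044 peaks no first-set library had a peak there, so nothing could be tested. In EpiSC_AFX as deposited, 72% of protein-coding genes had at least as many peaks per library as Nr5a2, while 18.1% had as many as Esrrb.

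Near Tfcp2l1, ES lists as deposited had 2, 1 and 1 peaks, FS1 2, 2 and 3, FS2 3, 2 and 1, and each of the 9 EpiSC lists 2. Within 8044 peaks ES had 1 each, FS 1 ± 0.63 (SD, n = 6), EpiSC_AFX 1.5 ± 0.55 (SD, n = 6), and EpiSC_AF 0, 0 and 1. The difference of ES from FS was 0 (exact permutation test, p = 1) and that from EpiSC_AFX was −0.5 (exact permutation test, p = 0.464, adjusted p = 0.807). As deposited the differences were −0.833 (exact permutation test, p = 0.202, adjusted p = 0.384) and −0.667 (exact permutation test, p = 0.0833, adjusted p = 0.136). Like counts near Tfcp2l1 thus covered different sites: within 8044 peaks the ES libraries had the site inside the gene only, and the others had the start, that site, both or neither.

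FS and EpiSC_AFX did not differ beyond their spread near any of the 3 genes. With lists of equal length the difference in mean peaks was 0.167 near Esrrb (exact permutation test, p = 1) and −0.5 near Tfcp2l1 (exact permutation test, p = 0.364, adjusted p = 1). As deposited the differences were −1.5 near Esrrb, −0.5 near Nr5a2 and 0.167 near Tfcp2l1, each with adjusted p = 1 by the exact permutation test. A window with no separated region was the rule in this comparison, where 0.128% of 18774 regions at equal list length were in every FS and no EpiSC_AFX list and 0.0533% the reverse.

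No gene in the genome passed the adjusted test at equal list length in any of the 3 comparisons, which is 0% of 17765 genes for ES and FS, 17501 for ES and EpiSC_AFX and 16989 for FS and EpiSC_AFX. The exact permutation test gave an unadjusted p under 0.05 for 2086, 2545 and 472 of them. The smallest p it can give is 0.0119 with 3 libraries against 6 and 0.00216 with 6 against 6.

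**Figure D3:**
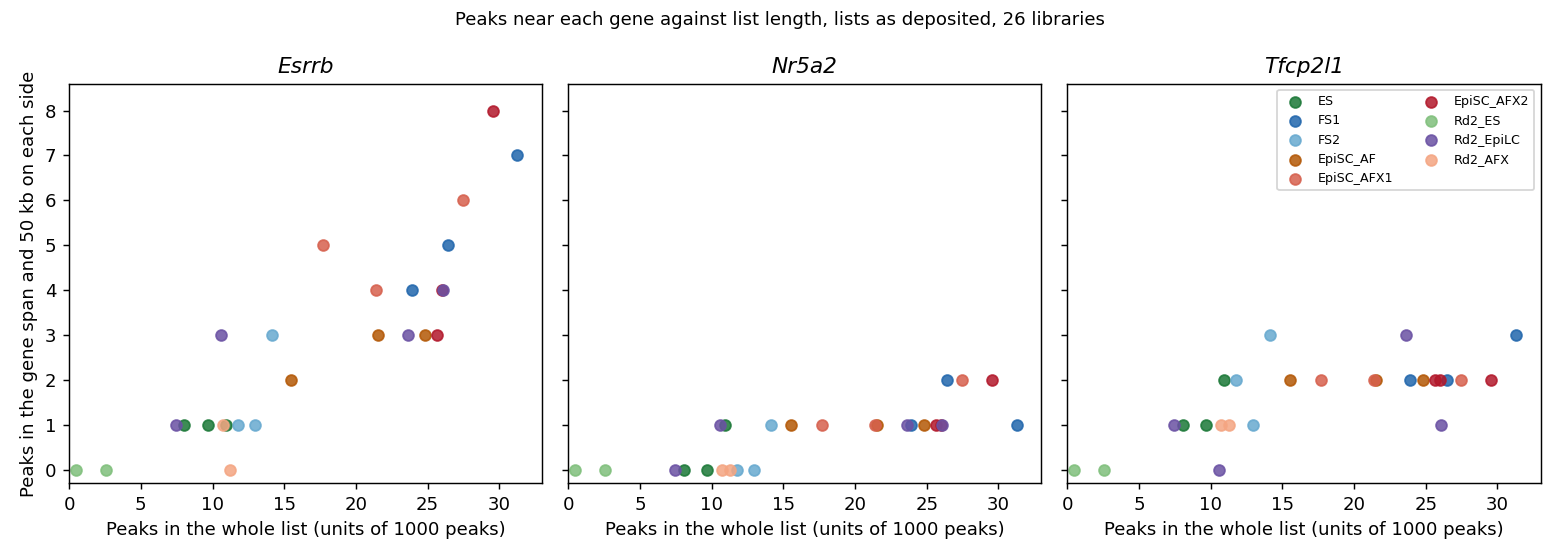
Peaks in the window of each gene (vertical axis) against the length of the whole list (horizontal axis, in units of 1000 peaks), 1 point for each of the 26 lists as deposited, coloured by group. Esrrb rises from 0 in the shortest lists to 8 in a list of 29575 peaks, Nr5a2 stays between 0 and 2 and Tfcp2l1 between 0 and 3.

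Other genes of the network were read in the same windows. Of 14 other naive factors, 12 had a peak at equal list length in ES or FS, and 0 passed the adjusted test. Every ES list was above every FS list near Prdm14 and Zfp42, as for 2.12% of all genes, and below near Sall4, as for 5.21%. Zfp42 (Rex1) had 2 peaks on average in ES lists and 0 in FS and EpiSC_AFX lists, and Prdm14, a repressor of epiblast genes, had 1.33 and 0 and 0. Against EpiSC_AFX the T-box factor Tbx3 was also higher in every ES list, at 1 and 0 peaks, where 2.75% of all genes were. The 3 factors described here showed no such separation in either direction.

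Among 9 nuclear receptor relatives of Esrrb and Nr5a2, 0 passed at equal list length. Nr5a1, the closest relative of Nr5a2, had 0 peaks in ES, 1 in FS and 1.17 in EpiSC_AFX lists on average, with every ES list lowest; 7.06% of genes were lower in every ES than in every EpiSC_AFX list. As deposited, 7 of the 9 passed as lower in ES than in EpiSC_AFX, set against 36.4% of all genes. Of the 5 CP2 and grainyhead relatives of Tfcp2l1, none separated ES from FS or EpiSC_AFX at equal list length, and 2 passed as lower in ES than in EpiSC_AFX as deposited, Grhl2 and Grhl3. Of 6 factors that act on these genes, 4 passed as lower in ES in that comparison, Foxd3, Tcf7l1, Otx2 and Pou5f1, and none at equal list length. The median difference between ES and EpiSC_AFX as deposited was −3.67 peaks in the nuclear receptors, −1.83 in the CP2 relatives and −2.33 in the acting factors, beside −1.67 over all genes.

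Likeness was measured as Pearson's r of the kb covered by peaks in the window over the 18 first-set libraries. At equal list length the genes most like Esrrb were Stpg4 (r = 0.931) and Ms4a1 (r = 0.909), and those most like Tfcp2l1 were Plekhh2 (r = 0.802) and Cp (r = 0.799). Nr5a2 had no peak to compare. As deposited the nearest were Gm36028 (r = 0.913) and Hpn (r = 0.908) for Esrrb, Cspg5 (r = 0.901) and Tchh (r = 0.897) for Nr5a2, and Card19 (r = 0.905) and Slc24a1 (r = 0.863) for Tfcp2l1. The named genes had the highest r of 18228 genes searched at equal list length and of at least 20588 as deposited. Whether such values exceed those of a random pattern was not tested. Libraries share their list length across genes in these values, and the Esrrb values at equal length rest on 5 peaks. None of the 3 genes was among the nearest of another.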

How the data were processed

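Per the labels' protocols, the nuclei of 50000 cells went into each library, cut and tagged by Tn5 of a Nextera kit. Per the submitters' processing notes, Trim Galore, Bowtie, Picard and MACS2 were used with the mm10 build; their versions and settings are not given in the sources used here. The authors deposited 1 list of broad peaks for each of the 26 libraries, so peaks were called per sample. Each deposited peak carries a fold enrichment (a ratio) and −log10 p and −log10 q values by the authors, and these were used only to rank or filter peaks within a list. Depth is unknown, and the precision rests on the number of libraries.

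Gene spans, starts and promoters came from tables of GRCm38.p6, the RefSeq name of the mm10 build, and no genome sequence was used, so peaks inside genes have no sequence here. Peaks were merged into union regions over all lists for description and over the compared libraries for tests, and 1 bp of overlap was presence. Peaks up to 1 kb from a gene end were placed there, and others were inside the gene or outside it within 50 kb. The number of peaks in each window was compared by an exact two-sided permutation test over libraries, for every protein-coding gene (21883 in the table) with a peak in the lists compared, and regions by Fisher's exact test. Benjamini-Hochberg adjustment ran over all genes or regions, with a threshold of 0.05. FS joined FS1 with FS2, and EpiSC_AFX joined EpiSC_AFX1 with EpiSC_AFX2. FS1 against FS2 and EpiSC_AFX1 against EpiSC_AFX2 are described only, since 3 against 3 libraries cannot fall below the threshold, and so are the Rd2 groups, with 4 and 2. EpiSC_AF against the joined groups, 3 against 6 libraries, could have been tested and was only described.

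Named were the 3 genes, regions that separated 2 cell types, regions within 1 kb of a gene end, the 3 regions of each gene in most lists, the 2 genes most alike to each in covered kb, and fixed lists of related factors and markers. Further regions in 1 ES list, in EpiLCs, and the pair at the ES sites of Esrrb were named after their values were seen. The members and lists were chosen with earlier results of these data known. No pair of libraries in a group shared more than 0.0746% of peaks with identical coordinates. Scripts were tested on simulated data and ran in Python 3.11.15 with numpy 2.4.6, pandas 2.3.3, scipy 1.17.1 and matplotlib 3.10.9. Alternatives were other list lengths, ranking by fold enrichment, a −log10 q of at least 5, a window of 20 kb, an overlap of 50% of the region, a replicate block and leaving out each library; FS, EpiSC_AF and EpiSC_AFX at their own shortest length was added after the data were seen.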

Additional observations from a re-analysis of the deposited data

Results flagged for a closer look

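An outlier rule was applied to 15 sets of counts, each of 1 gene, 1 list length and 1 group of 4 or more libraries. The rule divides the gap between the outermost value and its neighbour by the range, and it flagged 3 values. With counts of only 0 and 1, a single differing library is always flagged, so no rate of chance is given. Near Esrrb at equal list length, EpiSC_AFX1 replicate 3 had 1 peak, the +72.2 kb region at rank 7697, and the other EpiSC_AFX libraries had 0. Near Nr5a2 as deposited, Rd2_EpiLC replicate 3 had 0 peaks where the other 3 had 1; its list, of 7469 peaks, was the shortest of the 4. Near Nr5a2 at equal list length, Rd2_EpiLC replicate 1 had 1 peak, at rank 2909, where the other 3 had 0.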

How the results depend on the processing

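Of 165 alternatives of the 9 peak-count differences, 51 gave no p because no peak was there to test, nearly all for Nr5a2. None of the other 114 passed (lowest adjusted p = 0.0548 by the exact permutation test, Esrrb between ES and EpiSC_AFX as deposited). At equal list length no gene of the genome passed, so a miss there says nothing of stability. Signs turned. For ES minus FS near Esrrb, 0.333 became −2.5 as deposited and −0.167 by fold enrichment, at 4000 peaks and at −log10 q of at least 5. For ES minus FS near Tfcp2l1 and Nr5a2, differences of 0 moved both ways. Near Tfcp2l1 the difference was −0.833 as deposited and 0.667 at 4000 peaks, and near Nr5a2 −0.5 as deposited and 0.333 by fold enrichment. For ES minus EpiSC_AFX near Esrrb, 0.5 became −4 as deposited, −0.167 by fold enrichment and −0.5 at the q limit, and near Tfcp2l1 −0.5 became 1 at 4000 peaks. For FS minus EpiSC_AFX near Esrrb, 0.167 became −1.5 as deposited and −0.333 at the q limit, and near Tfcp2l1 −0.5 became 0.167 as deposited and 0.333 at 4000 peaks. Regions in the windows that separated ES from FS numbered 0, and 1 at 4000 peaks. Those that separated ES from EpiSC_AFX numbered 1, and became 3 as deposited and 0 by fold enrichment, at the q limit and with 50% of the region covered. At 4000 peaks the number was again 1, but the region and the direction were not the same. At equal list length it was the Tfcp2l1 start, in 0 of 3 ES and 6 of 6 EpiSC_AFX lists. At 4000 peaks it was the +20.4 kb region, in 3 of 3 ES and 0 of 6 EpiSC_AFX lists. At the q limit the +20.4 kb region of Tfcp2l1 was held by 1 of 3 ES lists, by 1 of 6 FS lists and by 5 of 6 lists of EpiSC_AFX, which turned ES minus EpiSC_AFX to −50 percentage points; at 4000 peaks the start region turned FS minus EpiSC_AFX to 33.33 points. The cause of these changes was not tested.

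Leaving out each library gave 0.167 to 0.667 (Esrrb) and −0.2 to 0.2 (Tfcp2l1) for ES minus FS, 0.333 to 0.833 and −0.6 to −0.4 for ES minus EpiSC_AFX, and 0.0333 to 0.333 and −0.7 to −0.3 for FS minus EpiSC_AFX; Nr5a2 stayed at 0, and the separated regions at 0, 1 and 0. With the replicate number as a block the differences were the same, with p = 0.556 (adjusted p = 0.9, exact permutation test) for Esrrb between ES and FS, and no call changed. Same-numbered libraries did not deviate together (r from −0.0359 to 0.0263 over 45 pairs). These values show no pairing by number, and they cannot show that the libraries were prepared apart. Every peak lies wholly within its union region, so an overlap of 50% could be asked only of the region. Lists without read counts cannot show whether a missing ES peak is closed chromatin or a signal too low to be called.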
